A study of Mus musculus with 8 samples.

Results

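The 9 genes described here are listed as primary granule genes of myeloid progenitors. Mpo, Elane, Prtn3, Ctsg, Ms4a3, Hp, Lpo, Anxa3 and Igsf6 were followed through 8 arrays of mouse blood stem and progenitor cells. They were taken by symbol from a named list and are 9 of 18193 genes measured. Where a gene has several probe sets the one of highest mean was used, and each of the 9 had 1. Levels are given as log2 values. Of the 9 genes, Mpo, Elane, Prtn3 and Ctsg encode classical primary granule cargo, and the other 5 are listed with them without that defining role. The study asked how normal cells that share the marrow with a myeloid leukaemia differ from those of healthy marrow. Leukemic mice were CD45.1+ hosts given marrow of CD45.2+ donors (genotype BCR-ABL x SCL-tTA) mixed with as many CD45.1+ marrow cells, and the grafts of normal mice lacked BCR-ABL. This oncogenic fusion drives chronic myeloid leukaemia, and tTA, a transactivator under SCL regulatory sequence, turns it on when Tet water is taken away. Only CD45.1+ cells, labelled as non-transformed, were profiled, and a CD45.1 sort does not separate cells of the graft from remaining host cells. Per the design text, HSC were sorted 4 weeks after Tet removal. The labels give no time for KSL and no age of the mice.

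Each of 4 groups had 2 arrays. They were HSC (CD150+ CD48- KSL) of leukemic mice, normal-mouse HSC, KSL (lineage negative, Kit+, Sca-1+ cells) of leukemic mice, and normal-mouse KSL. KSL cells include HSC and the multipotent progenitors that follow them. The titles of the 2 KSL arrays of leukemic mice carry the wording of both kinds of mouse, and they were grouped by their disease state label, on which every value that uses this group depends. The labels do not say that the arrays of a group came from separate animals, so p-values measure the spread between these samples, which in the leukemic groups may be technical. The 2 arrays of each normal group differed in sex-linked genes, so they were not repeats of 1 RNA sample. Array 1 of both normal groups had a male pattern. Xist, the RNA that coats the silenced X, was at 5.79 in HSC and 3.67 in KSL on these, while the remaining 6 arrays had 11.63 to 11.99. The Y-linked gene Eif2s3y had 9.23 and 9.35 on them and 4.29 to 6.24 elsewhere. No leukemic-mouse array had the male pattern, so leukemic and normal groups were unbalanced in it. The sort gates were visible in the transcripts of HSC against KSL. Slamf1, the gene of CD150, had a log2 fold change of 2.73 in leukemic and 2.72 in normal mice, and Cd48 had -3.11 and -3.26, although limma passed neither (adjusted p = 0.0581 and 0.0958 for Slamf1, and 0.113 and 0.158 for Cd48). Of 9 measured long-term HSC genes, 5 were higher in HSC than in KSL in leukemic mice and 3 in normal mice by limma, among them Procr and Mecom. Of all 18193 genes, 569 were higher in leukemic and 146 in normal mice.

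Primary granules, also called azurophil granules, are the first granules a developing neutrophil makes. Their cargo genes are switched on at the promyelocyte stage, silenced before the secondary granule genes begin, and are already transcribed in progenitors with granulocyte-monocyte potential. Myeloperoxidase (Mpo) makes hypochlorous acid, while neutrophil elastase (Elane), proteinase 3 (Prtn3) and cathepsin G (Ctsg) are related serine proteases that digest microbial and matrix proteins. Ms4a3 encodes a membrane protein typical of granulocyte-monocyte progenitors, Hp the haemoglobin-binding protein haptoglobin, Lpo lactoperoxidase, Anxa3 a calcium-dependent membrane-binding annexin and Igsf6 an immunoglobulin-domain membrane protein of myeloid cells.

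Some of the 9 genes lie side by side in the RefSeq annotation of GRCm38.p6. Prtn3 and Elane are neighbours on chromosome 10, Mpo and Lpo on chromosome 11, Ctsg lies beside the basophil protease gene Mcpt8 on chromosome 14, and Ms4a3 beside the IgE receptor beta chain gene Ms4a2 on chromosome 19. The promoters of the 4 cargo genes are shown because Ctsg, Mpo and Elane had the 3 largest leukemic-to-normal estimates in HSC, while Prtn3, the neighbour of Elane, had a small one. Each line gives the 250 bases before the annotated start, 5′ to 3′ on the gene's strand, from RefSeq (GRCm38.p6). Capitals mark the core GAGGAA bound by the myeloid factor PU.1.
Mpo: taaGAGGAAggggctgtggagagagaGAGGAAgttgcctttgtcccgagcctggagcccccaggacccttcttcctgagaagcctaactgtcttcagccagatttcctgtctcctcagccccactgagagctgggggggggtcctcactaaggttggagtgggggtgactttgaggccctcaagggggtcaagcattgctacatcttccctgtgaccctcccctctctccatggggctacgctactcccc
Elane: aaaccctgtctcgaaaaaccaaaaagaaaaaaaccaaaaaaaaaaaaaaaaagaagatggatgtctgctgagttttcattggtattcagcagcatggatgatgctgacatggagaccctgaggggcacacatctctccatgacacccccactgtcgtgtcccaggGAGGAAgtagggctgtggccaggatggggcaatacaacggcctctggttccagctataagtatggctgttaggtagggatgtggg
Prtn3: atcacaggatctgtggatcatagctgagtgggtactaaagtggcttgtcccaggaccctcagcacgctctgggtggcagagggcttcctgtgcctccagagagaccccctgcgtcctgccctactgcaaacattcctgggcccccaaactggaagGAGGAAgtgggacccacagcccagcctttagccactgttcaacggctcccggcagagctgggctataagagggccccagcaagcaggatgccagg
Ctsg: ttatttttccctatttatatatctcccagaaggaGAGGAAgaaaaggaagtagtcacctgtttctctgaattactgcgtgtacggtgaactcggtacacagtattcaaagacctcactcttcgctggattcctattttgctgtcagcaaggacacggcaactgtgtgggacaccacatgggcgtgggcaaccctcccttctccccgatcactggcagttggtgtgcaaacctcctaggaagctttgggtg
These windows are chr11:87793534-87793783 on the plus strand for Mpo, chr10:79886062-79886311 on the plus strand for Elane, chr10:79879417-79879666 on the plus strand for Prtn3, and chr14:56102575-56102824 on the minus strand for Ctsg. Promoter windows of 300 bases, which add the first 50 bases of the transcript, were found for 7 of the 9 genes, all but Hp and Anxa3. On either strand, GAGGAA was present in 6 of the 7 (Mpo, Elane, Prtn3, Ctsg, Ms4a3 and Igsf6), and in 28.3% of all 32851 windows of that length. The copies of Elane and Prtn3 lay close to the start, at positions -85 to -80 and -95 to -90. The longer GAGGAAGT, which contains GAGGAA and was chosen after the sequences were seen, occurred in Mpo, Elane and Prtn3 and in 3.2% of all windows. The C/EBP motif TTNNGNAA occurred in Ms4a3, Lpo and Igsf6, 3 of 7, against 40.7% of windows, with overlapping copies in Igsf6. The RUNX motif TGTGGT occurred in Ctsg alone of the 7, against 16.8% of windows, and the short MYB motif AACNG in 5 of 7 against 80.3%. A match describes the letters and shows no binding.

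The 9 genes had lower levels in HSC than in KSL, in leukemic mice and in normal mice. HSC lay below KSL without overlap for 9 of 9 genes in both kinds of mice, where 23.2% of all genes did so in leukemic mice and 19.3% in normal mice. The median log2 fold change of the 9 genes, HSC over KSL, was -3.17 in leukemic mice and -4.51 in normal mice, against medians of 0.01 and 0.00 over all genes. By limma, with Benjamini-Hochberg adjustment over all genes, 6 of the 9 were lower in leukemic-mouse HSC (2.74% of all genes were) and 7 of the 9 in normal-mouse HSC (1% of all genes were). All 9 were lower at an unadjusted p under 0.05 in both, against 10.3% of all genes in leukemic and 7.36% in normal mice. In sorted bulk cells, fewer cells of a type and less RNA per cell cannot be told apart.

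**Figure D1:**
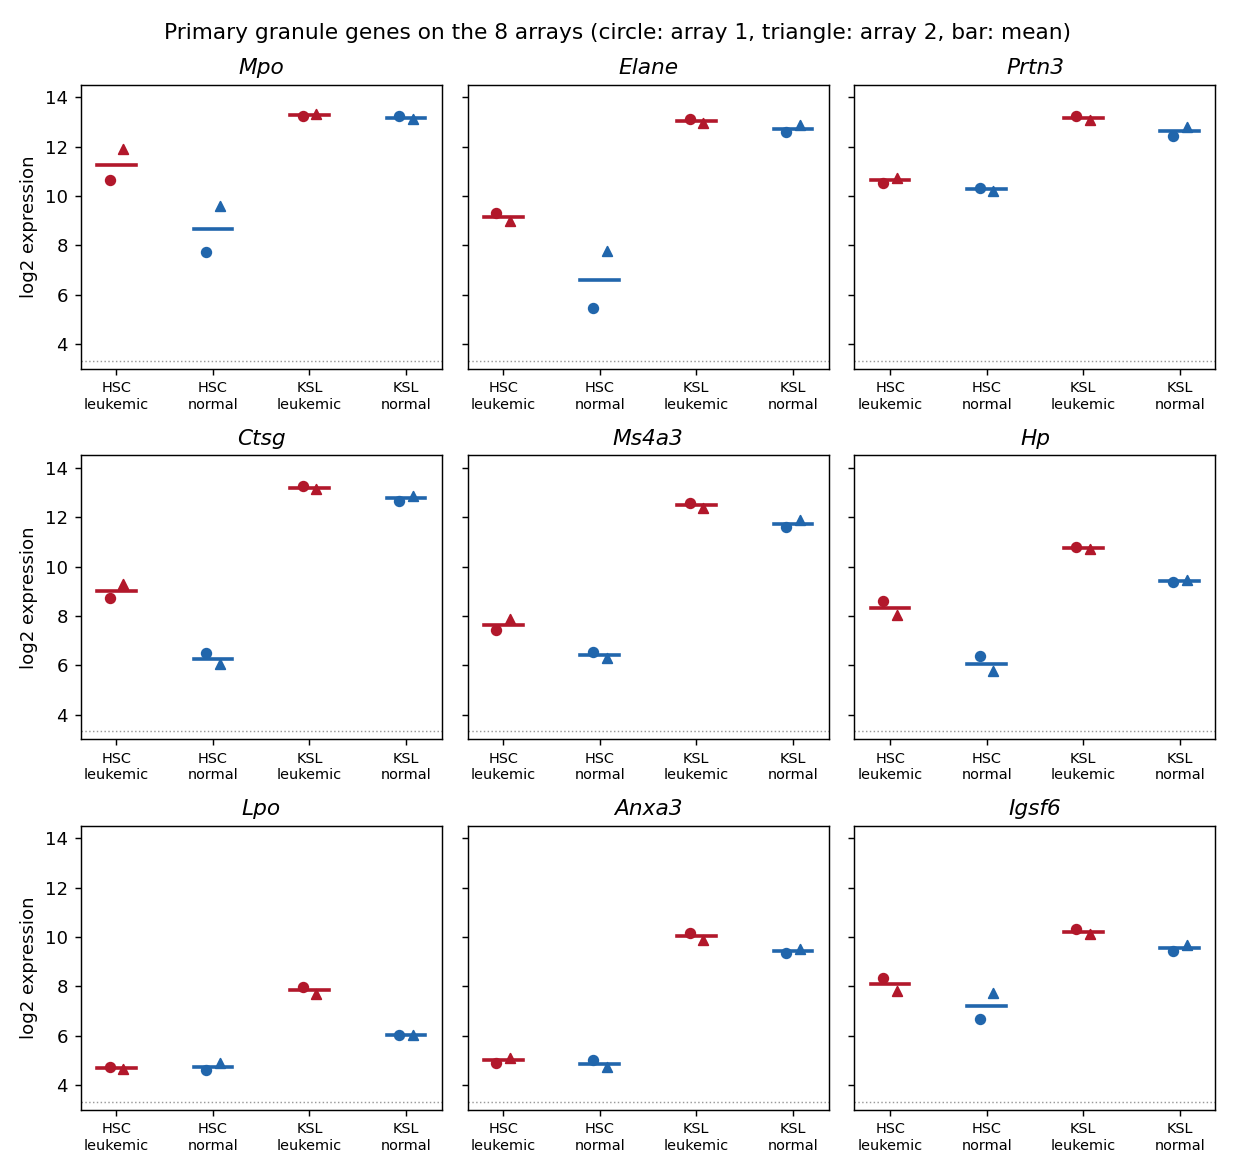
Log2 expression of each gene on the 8 arrays, by group on the x axis. Circles are array 1, triangles array 2, bars the group mean and the dotted line the floor of the deposited values. HSC values lie below the KSL values for all 9 genes, and in HSC the 2 normal arrays lie far apart for Mpo and Elane.

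Ctsg showed the largest contrast between the cell gates in normal mice and a smaller one in leukemic mice. In leukemic mice its log2 level was 8.74 and 9.28 in HSC and 13.27 and 13.14 in KSL, a log2 fold change of -4.19 ± 0.25 (limma SE, adjusted p = 0.00839), or 18.3-fold lower. In normal mice it was 6.50 and 6.04 in HSC and 12.65 and 12.88 in KSL, a log2 fold change of -6.49 ± 0.25 (adjusted p = 0.00482), or 89.8-fold lower. The test of the difference between these 2 contrasts is the interaction given further on.

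Elane had -3.89 ± 0.77 in leukemic mice, which did not pass (adjusted p = 0.0649), and -6.13 ± 0.77 in normal mice, which did (adjusted p = 0.0437). Mpo, the peroxidase, had -2.01 ± 0.73 in leukemic mice (adjusted p = 0.202) and -4.51 ± 0.73 in normal mice (adjusted p = 0.0725), and passed in neither. The 2 HSC arrays lay far apart for Mpo, with array 1 minus array 2 at -1.26 in leukemic and -1.85 in normal mice, while in KSL it was -0.08 and 0.10. Prtn3, the neighbour of Elane, had the smallest error of the 3 protease genes. It had -2.52 ± 0.16 in leukemic mice (adjusted p = 0.00869) and -2.34 ± 0.16 in normal mice (adjusted p = 0.0149), and its lowest HSC array was at 10.22.

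Anxa3 and Ms4a3 had large differences in both kinds of mice. Anxa3 was at 4.88 and 5.12 in leukemic-mouse HSC and 5.02 and 4.73 in normal-mouse HSC, against 10.17 and 9.88 in leukemic-mouse KSL and 9.35 and 9.53 in normal-mouse KSL. Its log2 fold changes were -5.03 ± 0.17 in leukemic mice (adjusted p = 0.00468) and -4.57 ± 0.17 in normal mice (adjusted p = 0.00464). Ms4a3 had -4.83 ± 0.20 (adjusted p = 0.0053) and -5.32 ± 0.20 (adjusted p = 0.00482) in the same 2 contrasts. Hp had -2.41 ± 0.28 in leukemic mice (adjusted p = 0.0236) and -3.36 ± 0.28 in normal mice (adjusted p = 0.0229). Igsf6, at -2.13 ± 0.40 and -2.38 ± 0.40, passed in neither (adjusted p = 0.0582 and 0.0785). Lpo had the larger contrast in leukemic mice, as Anxa3 and Prtn3 had by smaller steps, at -3.17 ± 0.14 (adjusted p = 0.00591) against -1.29 ± 0.14 (adjusted p = 0.0341) in normal mice.

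**Figure D2:**
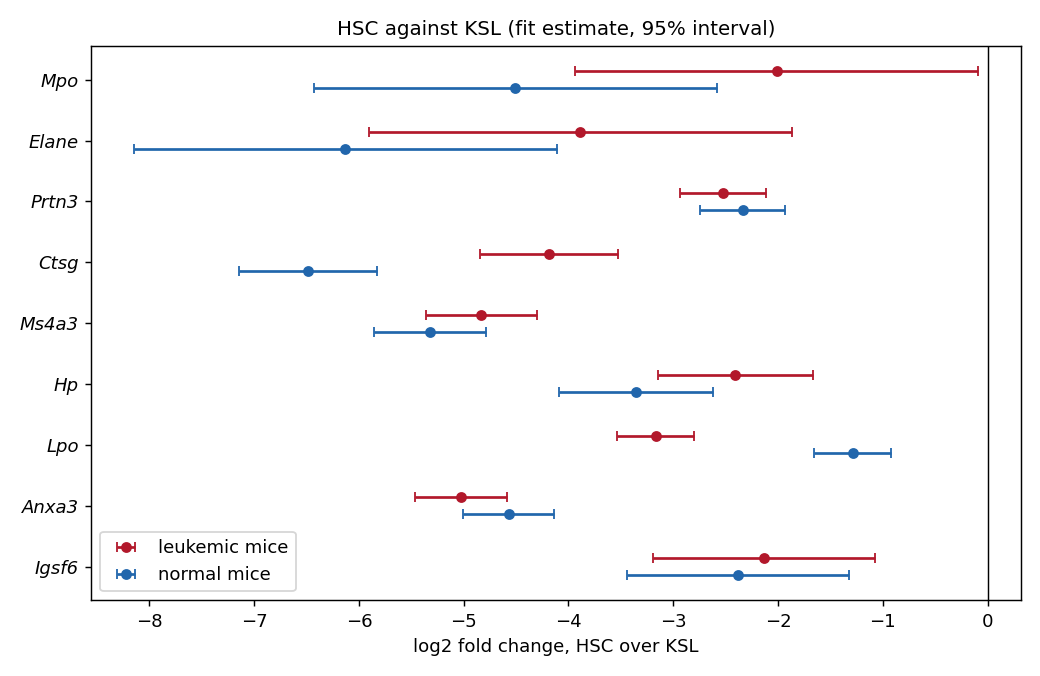
Log2 fold change of each gene, HSC over KSL, in leukemic and in normal mice (x axis), with the 95% interval of the limma fit. All 18 estimates lie below 0, between -6.49 for Ctsg and -1.29 for Lpo, both in normal mice.

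How many of the 9 genes passed depended on the arrays in the fit, while every direction was kept. The count over all genes moved with it. In leukemic mice 0 of the 9 passed without KSL leukemic 1 (0 of all genes by limma, 2575 of them below 0.05 unadjusted), 1 (Anxa3) without KSL leukemic 2 (9 of all genes), 5 without either KSL normal array (402) and 8 without either HSC normal array (1105). In normal mice 3 passed without KSL leukemic 1, KSL leukemic 2 or KSL normal 2 (Ctsg, Ms4a3 and Anxa3 each time, with 20, 20 and 42 of all genes), 4 without KSL normal 1 (48), 5 without either HSC leukemic array (463) and 6 without HSC normal 1 or HSC normal 2 (460 and 292). With the 2 arrays of male pattern left out together, 1 of the 9 passed in leukemic mice (94 of all genes) and 0 in normal mice (4 of all genes).

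In leukemic-mouse HSC, Ctsg, Mpo, Elane and Hp were the 4 with the largest differences, at log2 fold changes of 2.74, 2.58, 2.55 and 2.27 over normal-mouse HSC, but none of the 9 genes passed over all genes. Limma passed 0 of 9 (0.0989% of all genes passed in either direction), with 5 of 9 higher at an unadjusted p under 0.05 (Mpo, Elane, Ctsg, Ms4a3 and Hp) against 6.54% of all genes. The HSC arrays of leukemic mice lay above those of normal mice without overlap for 7 of 9 genes, all but Lpo and Anxa3, against 16% of all genes. Of the 9 estimates 8 were above 0, against 46.3% of all genes, and the median was 1.23 over the 9 genes and 0.00 over all genes. These genes were chosen with earlier results of the same arrays known, so the counts are a description and no independent evidence. The fit also pools the spread of each gene over HSC and KSL, which was unequal. Over all genes the median SD between arrays was 0.208 in leukemic-mouse and 0.196 in normal-mouse HSC. In KSL it was 0.094 and 0.114, so errors and p-values of the HSC contrast may be too small.

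Ctsg was the clearest of them. It was at 8.74 and 9.28 in leukemic-mouse HSC, against 6.50 and 6.04 in normal-mouse HSC, with a log2 fold change of 2.74 ± 0.25 (95% interval 2.08 to 3.40, adjusted p = 0.0819), or 6.67-fold. Both leukemic arrays lay more than 2 log2 units above both normal ones. Ctsg passed after arrays were set to a common median (adjusted p = 0.0357), without genes at the floor (0.0369) and without the 40% of genes of lowest mean (0.0310). It passed in no other alternative that kept both arrays of each HSC group. Its adjusted p in limma was 0.525 with only the 4 HSC arrays and 0.244 with array quality weights. Without HSC leukemic 1 it passed, at 3.01 (adjusted p = 0.0418), with the lone remaining array assumed to vary like the other groups.

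Mpo and Elane had similar estimates with far wider errors. Mpo was at 10.63 and 11.89 in leukemic-mouse HSC, against 7.75 and 9.60 in normal-mouse HSC (2.58 ± 0.73, interval 0.66 to 4.51, adjusted p = 0.256). Elane was at 9.31 and 9.00, against 5.45 and 7.75 (2.55 ± 0.77, interval 0.53 to 4.57, adjusted p = 0.276). The groups did not overlap for either gene, yet the 2 normal arrays lay far apart, with array 1 minus array 2 at -1.85 for Mpo and -2.31 for Elane. Mpo was at 3.51 without HSC normal 2 and 1.66 without HSC normal 1, and Elane at 3.71 and 1.40, so the size of both rested on which normal array was used. HSC normal 1 had the male pattern and the leukemic arrays did not, and the part of sex in these estimates was not tested. Prtn3, at 10.52 and 10.74 against 10.34 and 10.22, differed by 0.35 ± 0.16 (interval -0.05 to 0.76, adjusted p = 0.424), although it lies next to Elane.

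Hp was at 8.62 and 8.05 in leukemic-mouse HSC, against 6.38 and 5.75 in normal-mouse HSC (2.27 ± 0.28, adjusted p = 0.105). Ms4a3 was at 7.42 and 7.88, against 6.53 and 6.30 (1.23 ± 0.20, adjusted p = 0.141). The groups did not overlap for either gene. Igsf6 was at 8.36 and 7.81, against 6.67 and 7.71, so that the lower leukemic and the higher normal array nearly met (0.89 ± 0.40, adjusted p = 0.433). It was at 1.42 without HSC normal 2 and 0.37 without HSC normal 1.

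Lpo and Anxa3 showed no such difference in HSC. Lpo was at 4.72 and 4.64 in leukemic-mouse HSC, against 4.60 and 4.89 in normal-mouse HSC (-0.06 ± 0.14, interval -0.43 to 0.31). For Anxa3 the difference was 0.13 ± 0.17 (interval -0.31 to 0.56). The intervals leave out differences of the size seen for Ctsg or Hp. No array had any of the 9 genes at the floor of 3.32, but in HSC Lpo and Anxa3 lay below the array medians (5.74 to 5.86). Whether their probe sets can show a change at such low levels was not tested.

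**Figure D3:**
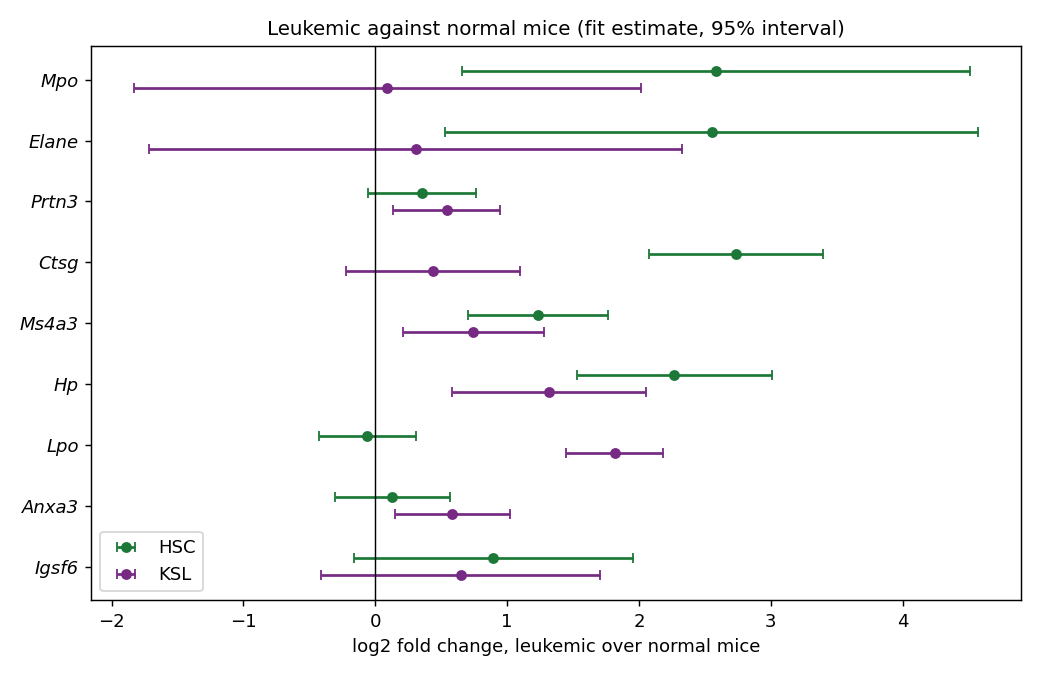
Log2 fold change of each gene, leukemic over normal mice, in HSC and in KSL (x axis), with the 95% interval of the limma fit. In HSC the 4 largest estimates are those of Ctsg, Mpo, Elane and Hp, while in KSL they are those of Lpo, Hp, Ms4a3 and Igsf6.

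Set against the gap between HSC and KSL in normal mice on the log2 scale, leukemic-mouse HSC stood at different points for different genes. The difference from normal-mouse HSC came to 67.6% of that gap for Hp, 57.3% for Mpo, 42.2% for Ctsg, 41.6% for Elane and 37.6% for Igsf6. It came to 23.2% for Ms4a3, 15.1% for Prtn3, 2.8% for Anxa3 and -4.79% for Lpo. The share thus ranged widely among the 9 genes. Some shares rested on 1 array, by an alternative added after the data were seen. With 1 array left out, Mpo ran between 43.4% and 71.3%, Elane between 28.1% and 50.9%, and Igsf6 between 20.0% and 49.1%. Lpo ran between -18.2% and 5.87%, and Anxa3 between -0.38% and 5.78%. Without HSC leukemic 1 the share of Mpo (71.3%) was above that of Hp (59.1%). These shares use normal-mouse HSC on both sides of the ratio and are given as a description without a test.

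Values of other cell types and of RNA quality that differed beside these genes in HSC were as follows, and their part in the result was not tested. Late neutrophil and secondary granule genes were above 0 for 11 of 12 measured members, with a median of 2.11 and 0 passing, and their summed level (log2 of the sum of linear values) was 14.29 and 13.74 in leukemic-mouse HSC, against 13.33 and 9.39 in normal-mouse HSC. Within normal-mouse HSC, the alarmin gene S100a8 was at 11.79 on array 1 and 7.93 on array 2, and the secondary granule gene Camp at 10.12 and 5.59. Of the 9 genes, Prtn3, Ctsg, Ms4a3, Hp and Anxa3 were also higher on array 1, by 0.11 to 0.62, while Mpo, Elane, Igsf6 and Lpo were lower on it. Monocyte and macrophage genes were above 0 for 6 of 11 (median 0.65, 0 passing, 4 higher and 0 lower at an unadjusted p under 0.05), with sums of 10.03 and 9.96 against 9.16 and 9.40. Among them the chemokine receptor gene Ccr2 was at 7.43 and 6.06 against 4.67 and 3.74 and F13a1 at 7.85 and 7.58 against 6.09 and 5.36. Of the 11, 5 were below 0, namely Adgre1, Cd14 and the complement genes C1qa, C1qb and C1qc. C1qa was at 3.52 and 3.66 against 5.00 and 5.04. Adgre1, the gene of F4/80, was at the floor on both HSC arrays of leukemic mice and on 1 of normal mice. Mast cell, basophil and eosinophil genes were above 0 for 8 of 8 (median 0.37, 0 passing), with sums of 8.11 and 9.12 against 7.78 and 7.67. Long-term HSC genes were below 0 for 7 of 9 (median -0.40), with sums of 12.39 and 12.52 against 12.86 and 12.84. The difference between 3 prime and 5 prime control probes of Gapdh was 1.19 and 1.03 against 0.78 and 0.83, and that of Tfrc -0.36 and -0.75 against -2.04 and -1.74. That of Actb went the other way, at -0.42 and -0.50 against -0.37 and -0.38.

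In leukemic-mouse KSL all 9 genes had estimates above 0 over normal-mouse KSL (50% of all genes did), from 0.09 for Mpo to 1.82 for Lpo. Limma passed 0 of 9 (0.044% of all genes passed), with 5 of 9 higher at an unadjusted p under 0.05 (Prtn3, Ms4a3, Hp, Lpo and Anxa3) against 3.5% of all genes. The arrays did not overlap for 9 of 9 genes, against 20.5% of all genes higher without overlap. For Mpo they nearly met, with the lower leukemic array at 13.2314 and the higher normal array at 13.2301. As in HSC, these counts are a description of genes chosen with earlier results known. The median log2 fold change was 0.58 over the 9 genes and 0.00 over all genes.

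Lpo had the largest difference of the 9 in KSL. It was at 7.99 and 7.70 in leukemic-mouse KSL, against 6.04 and 6.02 in normal-mouse KSL (1.82 ± 0.14, interval 1.45 to 2.18, adjusted p = 0.0993), or 3.52-fold. Both leukemic arrays lay above both normal ones. It passed with array quality weights (adjusted p = 0.0376) and in none of the other 17 alternatives. Its neighbour Mpo was at 13.23 and 13.31, against 13.23 and 13.13 (0.09 ± 0.73, interval -1.83 to 2.02), with an SE that the fit pools over all groups.

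Hp followed, at 10.78 and 10.70 in leukemic-mouse KSL, against 9.37 and 9.47 in normal-mouse KSL (1.32 ± 0.28, adjusted p = 0.342). Ms4a3 was at 12.59 and 12.37, against 11.60 and 11.87 (0.75 ± 0.20, adjusted p = 0.485). Among the 9 genes, Hp alone had an estimate above 1 in HSC and in KSL. The 3 proteases had estimates of 0.54 ± 0.16 for Prtn3 (adjusted p = 0.511), 0.44 ± 0.25 for Ctsg (0.858) and 0.31 ± 0.77 for Elane (1). Anxa3 had 0.58 ± 0.17 (0.51) and Igsf6 0.65 ± 0.40 (0.899).

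Other markers differed beside these genes in KSL as well, and their part was not tested. Mast cell, basophil and eosinophil genes were above 0 for 8 of 8 (median 1.16, 0 passing), with summed levels of 12.76 and 12.79 in leukemic-mouse KSL, against 11.62 and 12.19 in normal-mouse KSL. Late neutrophil genes were above 0 for 12 of 12 (median 0.71, 0 passing), with sums of 13.21 and 12.56 against 12.39 and 11.88. Long-term HSC genes were below 0 for 8 of 9 (median -0.63), with sums of 9.77 and 9.66 against 10.69 and 10.50. Monocyte and macrophage genes were above 0 for 4 of 11 in KSL (median -0.26, 0 passing), with sums of 11.98 and 12.23 against 12.04 and 12.30. Of the other lists none had a passing gene in leukemic against normal mice. Erythroid genes were above 0 for 0 of 6 in HSC and 1 of 6 in KSL, megakaryocyte genes for 4 of 5 and 0 of 5, B cell genes for 5 of 6 and 2 of 6, and T and NK cell genes for 4 of 5 and 1 of 5.

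Whether the leukemic difference itself was unlike in HSC and KSL was tested by an interaction term (the difference in HSC minus that in KSL). Limma passed 0 of the 9 genes and 1 of all genes (0.0055%), with 1 of 9 higher and 1 of 9 lower at an unadjusted p under 0.05, against 4.81% and 4.28% of all genes. Ctsg had the firmer positive one, 2.30 ± 0.35 (interval 1.37 to 3.23, adjusted p = 0.245). Lpo had the negative one, -1.88 ± 0.20 (interval -2.40 to -1.36, adjusted p = 0.166). Mpo, the other peroxidase gene, had 2.49 ± 1.04, with an interval spanning 0 (-0.23 to 5.21, adjusted p = 0.582). This interaction thus passed for none of the 9 in limma.

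The genes around the granule proteins were read from lists of 10, 8 and 9 measured genes. Of 10 genes for the processing, packing and cargo of granules, none passed in leukemic against normal mice (3 higher and 1 lower at an unadjusted p under 0.05 in HSC, and 1 higher and 0 lower in KSL). Over all genes the shares at that p were 6.54% higher and 7.23% lower in HSC, and 3.5% higher and 4.45% lower in KSL. Serpinb1a, an intracellular inhibitor of elastase, proteinase 3 and cathepsin G, was at 9.75 and 9.07 in leukemic-mouse HSC, against 7.56 and 7.42 in normal-mouse HSC (1.92 ± 0.23, adjusted p = 0.101). The lysosomal enzyme gene Gusb had -0.75 ± 0.13 (adjusted p = 0.151). Serpinb1a and Gusb thus had estimates of opposite sign in HSC. In KSL Gusb had 0.50 ± 0.13 (adjusted p = 0.468) and the lysozyme gene Lyz1 -0.32 ± 0.13 (adjusted p = 0.668). In HSC against KSL, 3 of the 10 were lower in leukemic mice (Gusb, the haem synthesis gene Alas1 and the chaperone gene Calr) and 2 in normal mice (Serpinb1a and Alas1). Ctsc, whose product activates the granule proteases, and Srgn, which encodes the proteoglycan that packs them, passed in none of these contrasts.

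Among 8 transcription factors known to regulate these genes, none passed in leukemic against normal mice, with 2 higher and 1 lower at an unadjusted p under 0.05 in HSC, and 0 higher and 3 lower in KSL. The monocyte factor gene Irf8 had 1.58 ± 0.24 in HSC (adjusted p = 0.134) and -0.89 ± 0.24 in KSL (adjusted p = 0.475), and Myb had -0.40 ± 0.12 in HSC (adjusted p = 0.279). In KSL Cbfb had -0.32 ± 0.11 (adjusted p = 0.573). Irf8 was lower in HSC than in KSL in leukemic mice (-1.99 ± 0.24, adjusted p = 0.0242) and in normal mice (-4.46 ± 0.24, adjusted p = 0.0120). In leukemic mice Spi1, the gene of PU.1, and Myb were also lower in HSC, at -1.80 ± 0.30 and -0.71 ± 0.12 (adjusted p = 0.0450 and 0.0479). Of 9 progenitor surface receptors none passed in leukemic against normal mice (2 higher and 0 lower at an unadjusted p under 0.05 in HSC, and 0 higher and 1 lower in KSL). Csf2rb, a signalling chain of the GM-CSF receptor, had 1.43 ± 0.35 in HSC (adjusted p = 0.218) and Csf1r 2.07 ± 0.76 (adjusted p = 0.349). In KSL, the stem and progenitor antigen gene Cd34 had -0.75 ± 0.22 (adjusted p = 0.511) and Csf2rb 0.91 ± 0.35 (adjusted p = 0.638). In HSC against KSL only Fcgr3 of the 9 receptors passed, in leukemic mice (-3.93 ± 0.55, adjusted p = 0.0333).

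The 10 genes most like the group were picked among 4151 genes that varied by an SD of at least 0.5 and were at the floor on no array. Likeness was the Pearson correlation over 8 arrays with the mean standardised level of the 9 genes. Because the arrays form an HSC and a KSL cluster, such a correlation mostly reads the difference between the 2 gates, and it is given as a description. The 10 were 0610040J01Rik (r = 0.996), B4galnt1 (0.993), Atp8b4 (0.989), Cers6 (0.987), Tns3 (0.987), Bub1 (0.986), Kpna2 (0.986), Plac8 (0.985), Nkg7 (0.985) and Mbnl3 (0.984). The phospholipid flippase gene Atp8b4 had the widest range of them. It was at 5.98 and 5.94 in leukemic-mouse HSC, 4.53 and 4.27 in normal-mouse HSC, 10.64 and 10.61 in leukemic-mouse KSL, and 10.23 and 10.19 in normal-mouse KSL. By group mean, Atp8b4 was lowest in normal-mouse HSC and highest in leukemic-mouse KSL. That order was shared by the other genes most like the group and by all of the 9 but Lpo. Because Atp8b4 was picked for its likeness to the 9 genes, the shared order is no separate result.

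**Figure D4:**
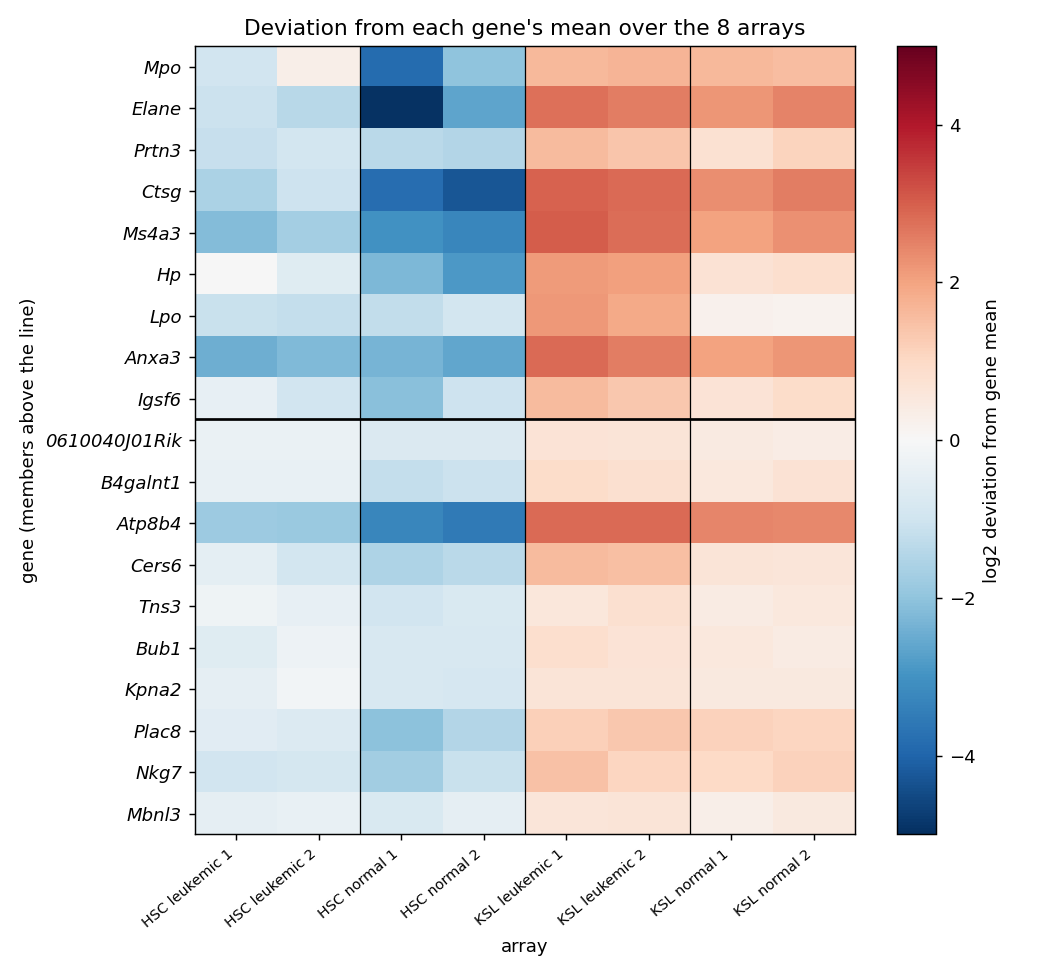
Log2 deviation of each gene from its own mean over the 8 arrays (colour), for the 9 genes above the line and the 10 genes most like them below it. Normal-mouse HSC are the lowest arrays for most genes, and Lpo and Anxa3 are similarly low in both HSC groups.

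The annotated neighbours did not share the pattern throughout. Mcpt8, beside Ctsg, was at 5.17 and 7.58 in leukemic-mouse HSC, against 4.57 and 4.95 in normal-mouse HSC (1.62, adjusted p = 0.486). In HSC against KSL in normal mice Mcpt8 had -3.99, which did not pass in limma (adjusted p = 0.112). Tspoap1, on the other side of Mpo from Lpo, was lower in HSC than in KSL in normal mice (-3.72, adjusted p = 0.0233), as was Ms4a2 beside Ms4a3 (-4.06, adjusted p = 0.0149). Plppr3, beside Prtn3, had -0.87 in that contrast (adjusted p = 0.126), and Mks1, beside Lpo, had -0.10 (0.971). Large differences between the gates were thus seen for some neighbours and not for others.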

How the data were processed

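Messenger RNA was measured on 8 Affymetrix mouse arrays, 2 in each of 4 groups, taken from the titles and, for KSL of leukemic mice, whose titles carry both wordings, from the disease state label. Descriptions that speak of embryos were not used. The authors deposited 1 table of log2 values for 45101 probe sets. The submitters' processing notes name RMA only, with no version. The deposited table has a floor at 10.0 on the linear scale (3.32 in log2), which holds 14.9% to 15.8% of probe sets per array. Array medians lay between 5.74 and 5.86, and 0 sample columns were left unused. The labels' labelling protocol describes the standard Affymetrix method and the design text an amplification kit, so the amplification is not settled.

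Probe sets with 1 symbol in the platform annotation (34945 of them) were collapsed to 18193 genes by the highest mean; each of the 9 genes had 1 probe set, so no second one could be set beside it. The fit used limma 3.58.1 (R 4.3.3), with 1 mean per group over all 8 arrays and 4 residual and 0.668 prior degrees of freedom, two-sided, adjusted by Benjamini-Hochberg over all genes, and called at 0.05. Errors after ± are standard errors of the fit, which pools the spread of each gene over the 4 groups although HSC arrays varied more than KSL arrays. The number of arrays limits the precision. The test was checked on simulated data. The 9 genes and all lists were chosen with earlier results of these data known. Named genes are the 9, the 10 most like them, and from each list of granule, factor and receptor genes up to 4 passing members or else the 2 with the smallest p. Other names are neighbours, gate and marker genes, chosen after their values were seen. Same-numbered arrays shared little deviation from group means across all genes (r between -0.04 and 0.09, highest between the 2 normal groups). Array 1 of both normal groups had a male pattern, and whether same-numbered normal arrays shared a source was not tested. Plots were made with Python 3.11.15 and matplotlib 3.10.9.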

Additional observations from a re-analysis of the deposited data

How the results depend on the processing

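Of 801 fold changes of the 9 genes under 18 alternatives (17 for the interaction), 711 kept direction and side of the threshold, 63 no longer passed, 21 newly passed and 6 turned in sign. With 1 array left out, leukemic against normal in HSC ran between -0.207 and 0.0840 for Lpo and between -0.0166 and 0.272 for Anxa3 (both turned without HSC normal 2), and the interaction of Igsf6 between -0.277 and 0.769 (turned without HSC leukemic 1 or HSC normal 1). Without the 2 arrays of male pattern the interaction of Igsf6 was -0.153 and that of Prtn3 0.0447. Same-numbered arrays shared little deviation across all genes, and a shared source of the normal arrays was not tested. The replicate block left 0 of all genes in leukemic against normal in HSC (18 without it), 0 in KSL (8), 0 in the interaction (1), 19 in HSC against KSL in normal mice (328) with 3 of the 9, and 401 in leukemic mice (1067).

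In HSC, leukemic against normal, the count of all genes was 11 with the mean of all probe sets, 0 with only the 4 arrays compared, 2 with array weights and 0 without the male-pattern arrays (1459 and 2740 at an unadjusted p under 0.05 in the 2 counts of 0), and 0 to 257 with 1 array left out. Of the 9 genes 1, Ctsg, passed after a common median, without genes at the floor, without the lowest 40% of genes, and 0 to 1 with 1 array left out. In KSL the count was 1 after a common median, 2 without genes at the floor, 2 without the lowest 40%, 0 with only 4 arrays (3044 unadjusted), 125 with array weights (1 of the 9, Lpo), 0 without the male-pattern arrays, and 0 to 6 with 1 array left out. The interaction gave 0 after cyclic loess, a common median, without floor genes or without the male-pattern arrays, 2 without the lowest 40%, 7 with mean probe sets, 5 with trend and robust variance, and 0 to 68 with 1 array left out.

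HSC against KSL in normal mice gave 519 after a common median, 546 without floor genes, 513 without the lowest 40%, 0 with 4 arrays (0 of the 9), 4 without the male-pattern arrays (0 of the 9), and 20 to 463 with 1 array left out (3 to 6 of the 9). In leukemic mice it gave 94 with 4 arrays (1 of the 9), 640 with array weights, 94 without the male-pattern arrays (1 of the 9), and 0 to 1316 with 1 array left out (0 to 8 of the 9). Leaving out arrays also lowers the residual degrees of freedom, and the cause of these moves was not tested further.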
